A study of Canis lupus familiaris with 5 samples.

Results

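The S100 family was described in 5 canine lymphoid cell lines, each profiled on 1 Affymetrix canine array. Its members were all probe sets whose gene symbol in the array annotation starts with S100 followed by A, B, P, G or Z. The rule found 33 probe sets for 17 genes, of 42924 probe sets for 15115 genes that were not array controls. One of the 17 genes, S100PBP, encodes a binding protein of S100P and is no S100 protein itself. Without it, 31 probe sets for 16 genes remained. The 2 lines labelled as B cells were 17-71, a B-lymphoid malignancy, and GL-1, a B-cell leukemia. The 3 lines labelled as T cells were CL-1, a primitive a/b T-cell leukemia, CLGL-90, a large granular lymphocyte (LGL) leukemia, and CLL-1390, a primitive T-cell leukemia. All were grown untreated in RPMI medium with fetal bovine serum. No line had a second array, so every spread given here is a spread between lines. An established line also stands for a single tumour.

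S100 proteins are small calcium sensors, named for their solubility in ammonium sulfate, that fold around a pair of EF-hand motifs and mostly work as dimers. Inside the cell they bind to and adjust other proteins on a calcium signal, such as annexins and non-muscle myosin. Some are also released as danger signals. In blood the best known are S100A8 and S100A9, which together form calprotectin in neutrophils and monocytes and act outside the cell on TLR4 and on the receptor AGER. Most of these roles come from work in humans and mice.

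Values are log2 intensities normalized by the authors, and a level can be compared between lines for 1 probe set but not between probe sets. Control probe sets that match no dog sequence (59 per array) had medians between 4.07 and 4.29. The highest of them on each array, at 6.39 to 6.76, is called the highest control below and gives a guide to background. Few B-cell and T-cell markers separated the groups. Of the 8 B-cell markers on the array, BTK read 11.52 in 17-71 and 11.46 in GL-1, against 3.93 in CL-1, 4.68 in CLGL-90 and 11.23 in CLL-1390, and was the only one above every T-labelled line in both. MS4A1 read 5.72 in 17-71 and 5.83 in GL-1, against 5.86 to 6.79 across the T-labelled lines, and CD79B lay at or under the highest control in every line. CD79A (7.83) and EBF1 (7.71) were highest in GL-1. Of the 9 T-cell markers, only CD247 lay below every T-labelled line in both B-labelled lines, at 5.68 in 17-71 and 5.85 in GL-1, against 11.16, 10.64 and 6.58 in the T-labelled lines. Over all genes tested, with 1 probe set per gene, 6.12% lay above and 9.26% below in this way. Neither marker count therefore shows that the markers follow the labels. CD3D read 5.14 in 17-71 and 9.78 in GL-1, against 5.44 in CL-1, 13.51 in CLGL-90 and 10.89 in CLL-1390. The groups are therefore called B-labelled and T-labelled.

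Within the family, 8 genes varied strongly over the lines and the other 9 genes of the rule varied by less than log2 2. A range of at least log2 2 between the highest and the lowest line was reached by 15 of the 33 probe sets (45.5%), against 12.9% of all probe sets on the array. The 15 probe sets belonged to S100A2, S100A4, S100A6, S100A8, S100A9, S100A10, S100A11 and S100A13, and probe sets of 1 gene are not independent of each other. The median range was 1.92 over the 33 probe sets and 0.67 over all probe sets. The 8 genes followed several patterns. S100A8, S100A9 and S100A4 were high in both B-labelled lines, S100A6 chiefly in GL-1 and S100A2 chiefly in 17-71. S100A10 was high in the 3 T-labelled lines, and CL-1 stood apart with low S100A11 and high S100A13.

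**Figure D1:**
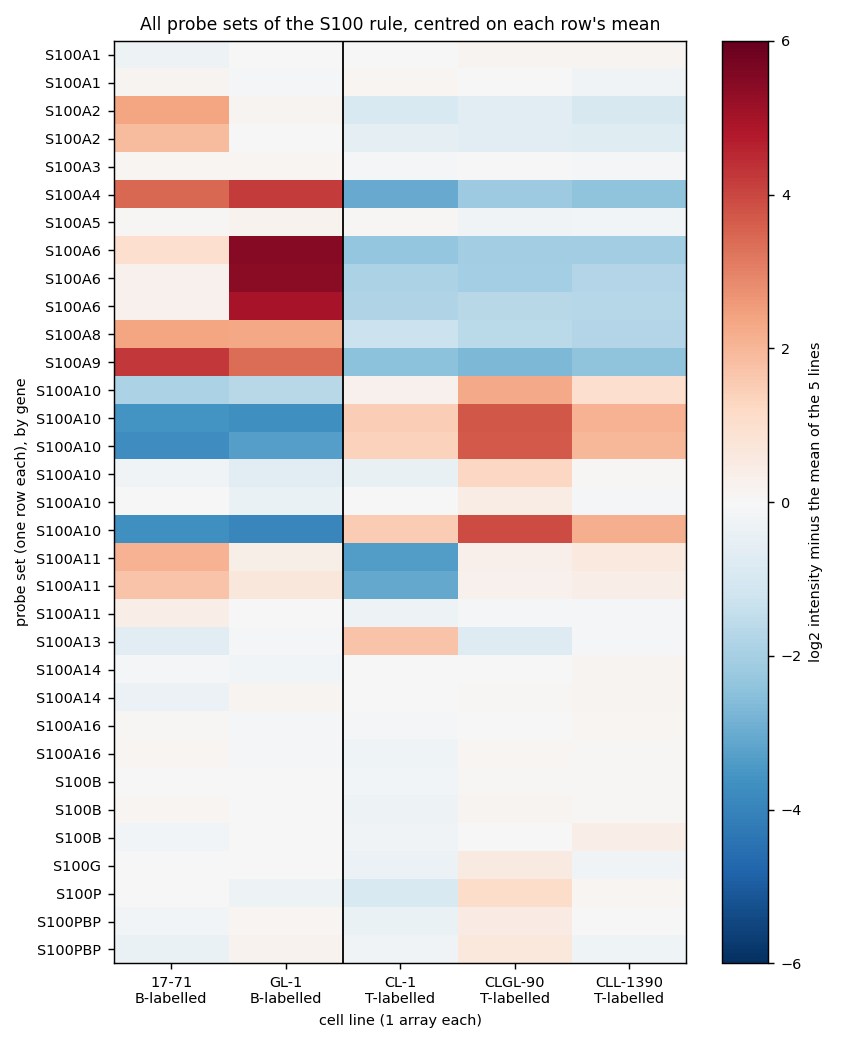
Log2 intensity of each of the 33 probe sets (rows, by gene) in each line (columns, B-labelled lines left of the black line), minus the mean of that row over the 5 lines; red is above and blue below the mean. The 15 rows with a range of at least log2 2 belong to 8 genes, and S100A10 runs opposite to S100A4, S100A8 and S100A9.

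Calprotectin transcripts were present in both B-labelled lines and at background in the T-labelled lines. S100A9 (gene ID 490463), a subunit that in mice stabilises its partner, read 11.22 in 17-71 and 10.32 in GL-1, against 4.52 in CL-1, 4.28 in CLGL-90 and 4.55 in CLL-1390. S100A8 (gene ID 490461), its partner, read 8.64 in 17-71 and 8.59 in GL-1, against 4.98, 4.69 and 4.52 in the same T-labelled lines. For both genes the groups did not overlap, and all 3 T-labelled values lay under the highest control of their array. The B-labelled lines differed from each other by 0.05 for S100A8 and by 0.91 for S100A9.

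The mean difference between B-labelled and T-labelled lines was 6.32 (SE 0.32) for S100A9 and 3.88 (SE 0.21) for S100A8. With the T-labelled mean set to the mean of the highest controls, the differences were 4.15 and 1.998. In limma, fitted over all tested probe sets of the array, both had an adjusted p of 0.0588 and did not pass 0.05, where 0.0136% of probe sets passed. They stood 6th and 7th of all tested probe sets by p-value. Both passed after a stricter filter at log2 7 (adjusted p = 0.0371 and 0.0431) and with an intensity trend and robust prior (0.0270 each). Both genes met the filters of all these fits only through the B-labelled lines, in which they were high. The passes are therefore no further support, and the share of all probe sets passing in the alternative fits was not taken. Over 11 alternatives the adjusted p ran from 0.0270 to 0.395 for S100A9 and from 0.0270 to 0.279 for S100A8.

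Some granulocyte and monocyte genes read higher in the same lines. Of 16 markers of these cells, 7 lay above every T-labelled line in both B-labelled lines, where 6.12% of all genes tested did, and 1, the lysozyme gene LYZ, passed in limma with 1 probe set per gene (difference 8.51, adjusted p = 0.0227), where 0.00706% of genes passed. LYZ read 3.28 to 4.02 in the T-labelled lines, so it entered the test only through the B-labelled lines and the size of its difference depends on background. The median level of the list was 7.52 in 17-71 and 8.32 in GL-1, against 6.22 in CL-1, 6.56 in CLGL-90 and 6.53 in CLL-1390. MPO and ELANE, granule enzymes that define neutrophil precursors, lay at or under the highest control in every line, and the probe set of CD14 read 7.95 to 8.26 throughout. CSF1R, CSF3R, ITGAM, MRC1, CTSG and CD163 also overlapped between the groups. CTSG was not flat: GL-1 stood at 8.39, while 17-71 read 6.44, CL-1 5.88, CLGL-90 6.66 and CLL-1390 6.63. Only GL-1 exceeded its highest control for CTSG. CD163 varied by 0.45 in the probe set used, but by 6.98 in the most variable of its 4 probe sets. The order of the lines in that probe set was not taken. The part of myeloid cells or of a myeloid programme in the S100 values was not tested. Fewer cells with a transcript and less transcript per cell cannot be told apart in bulk RNA.

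S100A4 (gene ID 403787), a binding partner of non-muscle myosin known for its link to cell motility and metastasis, had the largest difference of the family in favour of the B-labelled lines. It read 13.24 in 17-71 and 14.02 in GL-1, against 6.78 in CL-1, 7.62 in CLGL-90 and 7.42 in CLL-1390. The groups did not overlap, and unlike calprotectin the T-labelled values all lay above the highest control of their array. The difference of the means was 6.36 (SE 0.38), or 82.1-fold, and only 6 of the tested probe sets had a larger difference in either direction. The adjusted p in limma was 0.0677, and 0.0431 after the filter at log2 7, with a range of 0.0431 to 0.395 over 13 alternatives. MYH9, which encodes the heavy chain that S100A4 binds, read 10.71 in 17-71 and 10.45 in GL-1, against 9.65, 10.11 and 9.96 in the T-labelled lines in the order given above. Its difference of 0.67 (SE 0.22) did not pass (adjusted p = 1.0 in limma with 1 probe set per gene).

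S100A6, or calcyclin (gene ID 480143), was a transcript of GL-1 above all. Its probe set of highest mean read 9.73 in 17-71 and 14.22 in GL-1, against 6.40 in CL-1, 6.66 in CLGL-90 and 6.67 in CLL-1390. The other 2 probe sets showed the same order of the B-labelled lines, with 7.72 and 7.92 in 17-71, 12.88 and 12.62 in GL-1, and 5.40 to 5.999 in the T-labelled lines. By the 3 probe sets GL-1 exceeded 17-71 by 4.49 to 5.15, and 17-71 exceeded the highest T-labelled line by 1.92 to 3.06. GL-1 lay at least log2 2 above every other line in 0.333% of tested probe sets, and all 3 of S100A6 were among them.

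The groups of S100A6 did not overlap, yet the spread between the 2 B-labelled lines kept it far from the threshold. The differences were 5.40 (SE 1.34), 4.75 (SE 1.54) and 4.33 (SE 1.402), each with an adjusted p of 1.0 in limma. All 3 T-labelled means lay under the mean of the highest controls, and set to it they gave 5.36, 3.69 and 3.65. Without GL-1 they dropped to 3.16, 2.17 and 1.98, and without 17-71 they stood at 7.64, 7.33 and 6.68. CACYBP, the gene of the calcyclin-binding protein, read 13.37 in 17-71 and 13.23 in GL-1, against 13.14 to 13.62 across the T-labelled lines, and so varied by 0.47.

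S100A2 (gene ID 612326), known mainly from epithelia, where it binds p53, was highest in 17-71. Its 2 probe sets read 9.03 and 9.19 in 17-71 and 6.80 and 7.28 in GL-1. In the T-labelled lines they read 5.75 and 6.71 in CL-1, 6.04 and 6.64 in CLGL-90, and 5.68 and 6.55 in CLL-1390. GL-1 thus lay 0.76 and 0.56 above the nearest T-labelled line, and 2.23 and 1.91 below 17-71. In 0.646% of tested probe sets 17-71 lay at least log2 2 above every other line, and 1 of the 2 of S100A2 was among them. The differences of 2.09 (SE 0.69) and 1.60 (SE 0.59) did not pass (adjusted p = 1.0 in limma). The first was 1.30 with the T-labelled mean set to the mean of the highest controls. Without 17-71 the 2 differences were 0.98 and 0.64, against 3.21 and 2.56 without GL-1. Of the epithelial markers EPCAM, KRT8 and CDH1, none exceeded the highest control in any line. KRT18 read 9.40 in 17-71 and 5.83 in GL-1, against 5.99 in CL-1, 11.55 in CLGL-90 and 6.26 in CLL-1390, an order unlike that of S100A2.

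**Figure D2:**
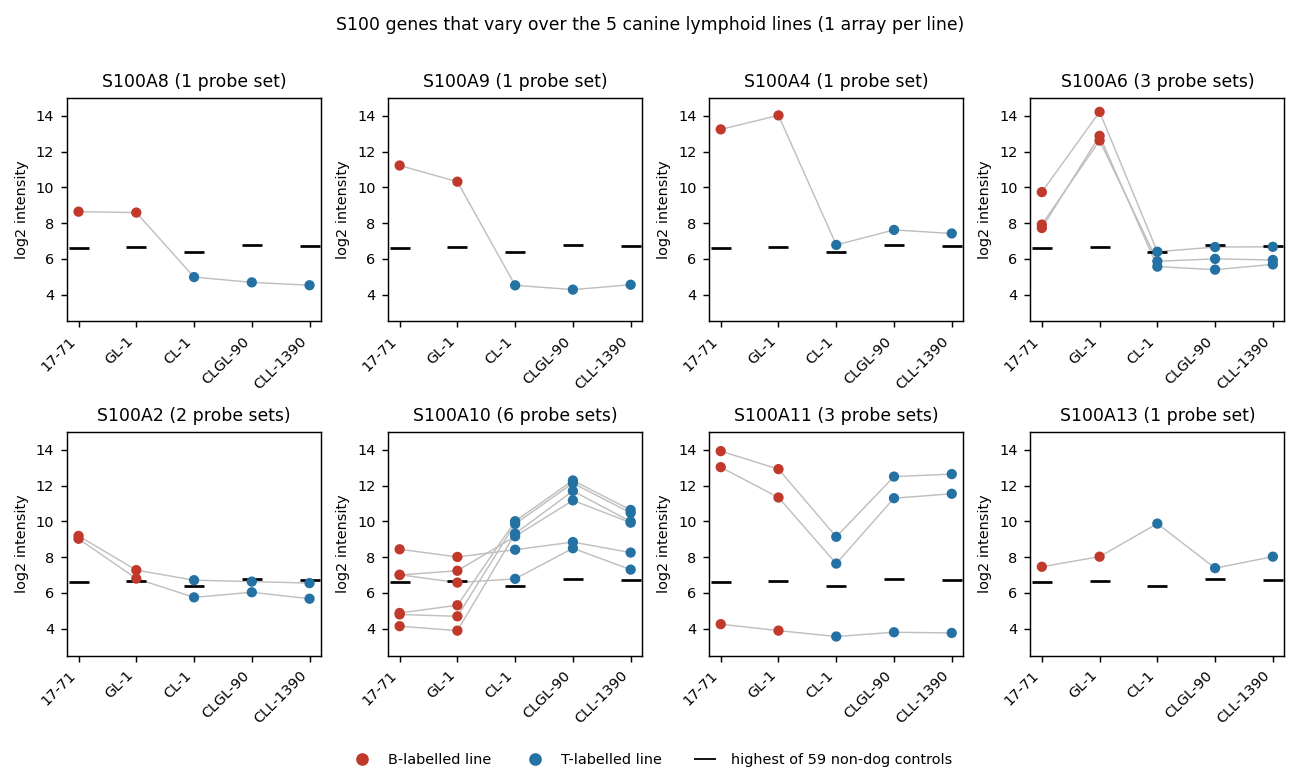
Log2 intensity in each line (1 array each) for every probe set of the 8 genes that vary by at least log2 2, with B-labelled lines in red on the left, T-labelled lines in blue, grey lines joining the points of 1 probe set and black dashes at the top non-dog control on each array. S100A8, S100A9 and S100A4 are high in both red lines, S100A6 peaks in GL-1, S100A10 is high in the blue lines in 4 of its 6 probe sets, and S100A11 is lowest in CL-1.

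S100A10 (gene ID 475851), also called p11, ran opposite to S100A4, S100A6, S100A8 and S100A9. It is an unusual member that has lost calcium binding and joins annexin A2 in a complex at the plasma membrane. Its most responsive probe set read 4.14 in 17-71 and 3.89 in GL-1, against 9.32 in CL-1, 11.70 in CLGL-90 and 10.00 in CLL-1390. The next read 4.80 and 4.69 in the B-labelled lines, against 9.86, 12.14 and 10.48. The one after it read 4.88 and 5.31, against 10.01, 12.29 and 10.64. In all 3 both B-labelled lines lay under their highest controls and every T-labelled line lay far above. One more probe set read 7.004 in 17-71 and 7.24 in GL-1, against 9.17, 11.18 and 9.93. The order of the T-labelled lines was the same in these 4 probe sets, with CLGL-90 first, CLL-1390 next and CL-1 last, over a range of 2.01 to 2.38.

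The other 2 probe sets of S100A10 hardly followed. One read 7.02 in 17-71 and 6.58 in GL-1, against 6.79, 8.5002 and 7.30, and the other 8.44 and 8.02 against 8.42, 8.85 and 8.26. CLGL-90 was the highest line in both of them too. The 4 responsive probe sets differed by -6.32 (SE 0.75), -6.08 (SE 0.72), -5.89 (SE 0.73) and -2.97 (SE 0.62) between B-labelled and T-labelled lines, and the 2 others by -0.73 (SE 0.56) and -0.28 (SE 0.27). With the B-labelled mean set to the mean of the highest controls, the first 3 differed by -3.71, -4.19 and -4.35. All 3 entered the test only through the T-labelled lines, since the B-labelled lines alone did not reach log2 5 on 2 arrays. The adjusted p values in limma were 0.398, 0.398, 0.426 and 0.917 for the responsive probe sets, and 1.0 for the others. The first 3 ran from 0.224 to 0.808 over the alternatives. By size, only 8 tested probe sets had a larger difference than the first, in either direction.

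The partners of S100A10 did not share its order. ANXA2, its annexin, was highest in GL-1, where 3 of the 4 responsive S100A10 probe sets lay under the highest control, at 12.72 and 11.36 by its 2 responsive probe sets. The same probe sets read 7.21 and 4.63 in 17-71, against 8.67 and 7.11 in CL-1, 8.01 and 5.62 in CLGL-90, and 7.73 and 5.83 in CLL-1390. AHNAK, a very large scaffold protein that the complex recruits, read 8.73 and 8.69 in CLGL-90 by the 2 most variable of its 8 probe sets, against 4.62 to 5.98 in the 4 other lines. CLGL-90 was thus the line with the highest S100A10 and, by these probe sets, the highest AHNAK, and GL-1 the line with the highest ANXA2.

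**Figure D3:**
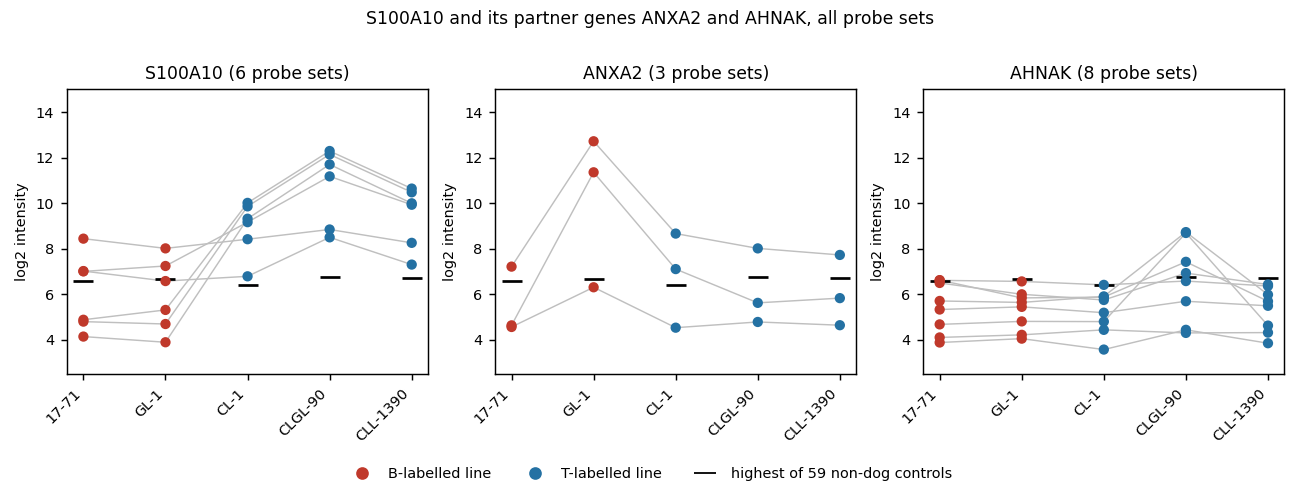
Log2 intensity by line (1 array each) of all probe sets of S100A10, of the annexin gene ANXA2 and of AHNAK, with B-labelled lines in red on the left, T-labelled lines in blue and black dashes at the top non-dog control on each array. ANXA2 peaks in GL-1 (12.72), where the 4 responsive S100A10 probe sets are low, and 2 AHNAK probe sets peak in CLGL-90 (8.73 and 8.69).

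S100A11 (gene ID 475852), a partner of annexin A1, read far lower in CL-1 than in the 4 other lines. Its main probe set read 13.93 in 17-71 and 12.93 in GL-1, against 9.14 in CL-1, 12.51 in CLGL-90 and 12.65 in CLL-1390. Another read 13.04 and 11.34 in the B-labelled lines, against 7.64 in CL-1, 11.30 in CLGL-90 and 11.55 in CLL-1390. CL-1 therefore lay 3.37 and 3.66 below the nearest other line, while 0.344% of tested probe sets had CL-1 at least log2 2 below every other line. The last probe set lay at background throughout (3.56 to 4.25). The differences between B-labelled and T-labelled lines, 1.997 (SE 1.22) and 2.02 (SE 1.40), did not pass (adjusted p = 1.0 in limma) and rested largely on CL-1, since without it they were 0.85 and 0.76. They were also 1.17 for the probe set named next without 17-71. ANXA1 was low in another line: it read 12.30 in 17-71 and 12.67 in GL-1, against 11.92 in CL-1, 12.19 in CLGL-90 and 5.11 in CLL-1390.

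S100A13 (gene ID 490457), which takes part in the release of growth factors that lack a secretion signal, had its maximum in CL-1. Its 1 probe set read 7.47 in 17-71 and 8.03 in GL-1, against 9.88 in CL-1, 7.39 in CLGL-90 and 8.03 in CLL-1390. CL-1 exceeded the next line by 1.85, and the difference of -0.68 between the groups (SE 0.799, adjusted p = 1.0 in limma) came to 0.04 without CL-1. Its gene overlaps that of S100A1 in the dog reference annotation, and the 2 probe sets of S100A1 lay at or under the highest control everywhere (4.24 to 5.07).

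The remaining members varied by less than log2 2. S100A3 and S100A5 read 4.74 to 5.19, S100B, the member typical of glia and melanocytes, 4.55 to 5.67 by 3 probe sets, and S100G, an intestinal calcium carrier, 4.10 to 4.99. All lay at or under the highest control of their array. One probe set of S100A16 lay just above it in every line (6.96 to 7.32), and 1 of S100A14 in 4 lines, with GL-1 at the control (6.66 to 6.95 over the lines). Neither had a range over 0.37, which shows neither expression nor its absence. S100P came closest to varying, with 6.23 in 17-71 and 5.90 in GL-1, against 5.33 in CL-1, 7.31 in CLGL-90 and 6.34 in CLL-1390, and only CLGL-90 exceeded its highest control. S100PBP read 8.65 in 17-71 and 8.93 in GL-1, against 8.45, 9.33 and 8.78, by its stronger probe set.

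Over the family as a whole, 26 of the 33 probe sets reached log2 5 on at least 2 arrays and were tested, and 7 dim ones were not. S100A8, S100A9 and the S100A10 probe sets with differences of -5.89 to -6.32 entered the test only through the lines in which they were high. No S100 probe set passed in limma at an adjusted p of 0.05, while 5 probe sets on the array did (0.0136% of those tested). At an unadjusted p under 0.05 there were 12 S100 probe sets, 8 higher and 4 lower in the B-labelled lines, where 3.72% of all tested probe sets reached this level (2.2% higher and 1.52% lower). Both B-labelled lines lay above all T-labelled lines in 9 of the 26 (34.6%; 6.58% of all tested) and below them in 5 (19.2%; 8.29% of all tested). The 9 belonged to S100A2, S100A4, S100A6, S100A8, S100A9 and S100A11, and the 5 to S100A10 and S100A14, the last with a difference of only -0.17. With no filter, 16 of all 33 did not overlap, against 14.8% of all probe sets, with 11 higher (6.39% of all) and 5 lower (8.41% of all). The median difference over the 26 was 0.05, and over all tested probe sets -0.01. This median counts probe sets, of which S100A10 alone has 6, and so shows no balance between genes. A permutation of the 5 lines has 10 splits and cannot give an exact p below 0.1.

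**Figure D4:**
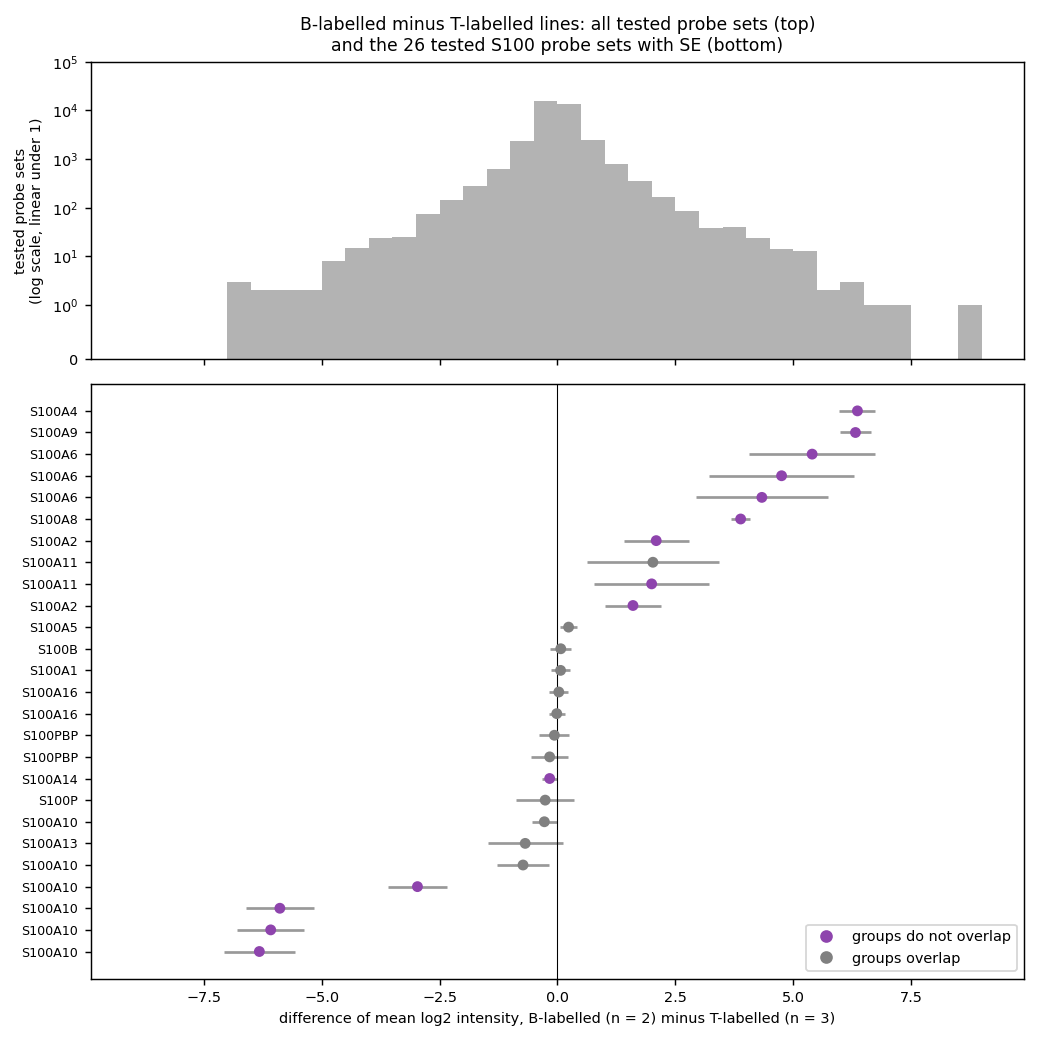
Difference of mean log2 intensity, B-labelled (n = 2 lines) minus T-labelled (n = 3 lines): the top panel counts all tested probe sets per bin on a log axis, and the bottom panel gives the 26 tested S100 probe sets with the standard error of limma as bars. S100A4 (6.36) and S100A9 (6.32) lie in the right tail and 3 probe sets of S100A10 (-5.89 to -6.32) in the left tail.

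Genes around S100 biology were read from lists of related genes with 1 probe set per gene, the one of highest mean. In this fit 14162 genes were tested and 0.00706% passed, with 3.52% at an unadjusted p under 0.05. The median difference over all of these genes was -0.03. Of the 23 receptors and binding partners, 21 were on the array and 18 tested, and limma called 0, with 2 at an unadjusted p under 0.05 (MYH9 and EZR) and a median difference of 0.105. TLR4, the receptor of calprotectin, was highest in 17-71 by its most variable probe set, at 7.23 against 4.41 in GL-1 and 4.13 to 4.56 across the T-labelled lines. LY96, its co-receptor, read 11.49 in 17-71 and 10.16 in GL-1, against 10.86 in CL-1, 8.85 in CLGL-90 and 9.13 in CLL-1390. AGER varied by no more than 0.43 in any of its 3 probe sets. CD36, a scavenger receptor, stood at 10.64 in CLL-1390 and at 4.06 to 4.39 in the other 4 lines. CD68, a lysosomal protein of macrophages, read 11.76 in 17-71 and 7.22 in GL-1, against 6.91 to 7.73 across the T-labelled lines, and ALCAM 7.85 in CL-1 alone.

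Annexins, the calcium-dependent membrane binders that several S100 proteins join, also varied widely. Of 12 listed, 11 were on the array and 10 tested. A range of at least log2 2 was reached by 8, and by 12.9% of all probe sets on the array. In limma 0 passed and 0 reached an unadjusted p of 0.05. GL-1 was the highest line for ANXA1 (12.67), ANXA2, ANXA3 (12.18), ANXA4 (10.62), ANXA5 (13.36), ANXA6 (11.76) and ANXA11 (12.56). It was the highest line for 12.01% of all genes, and also for S100A4 and S100A6. CLL-1390 was the lowest line for ANXA1 (5.11), ANXA6 (6.21) and ANXA11 (8.75), and 17-71 the lowest for ANXA5, at 7.27.

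Of 29 other EF-hand proteins, 28 were on the array and 26 tested. None passed in limma, and 2 reached an unadjusted p under 0.05, AIF1 and PPP3R1 (3.52% of all genes tested). AIF1, a calcium-binding protein of macrophages, read 11.46 in 17-71 and 11.76 in GL-1, against 5.86 in CL-1, 6.76 in CLGL-90 and 6.53 in CLL-1390 (difference 5.23, SE 0.33, adjusted p = 0.0528). CAPN2, a calpain, was high in 17-71 alone (11.21 against 5.89 to 6.27), and GCA, or grancalcin, lowest in 17-71 (6.64 against 8.49 to 11.32). RCN1 read 7.13 in CLL-1390, against 9.78 to 11.52 in the other lines. CALM2, a gene of calmodulin itself, read 13.82 to 14.04.

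The phagocyte oxidase, to which calprotectin delivers arachidonic acid in human neutrophils, read higher in the B-labelled lines in 3 of its subunits. CYBB read 11.09 in 17-71 and 9.19 in GL-1, against 6.24 in CL-1, 6.04 in CLGL-90 and 6.98 in CLL-1390. NCF4 read 11.03 and 10.37, against 5.21, 6.18 and 5.74, and NCF1 8.59 and 6.44, against 4.77, 5.00 and 5.02. For NCF1, GL-1 and the T-labelled lines all lay under the highest control of their array, so their order cannot be read. It entered the test only through the B-labelled lines, since the T-labelled lines alone did not reach log2 5 on 2 arrays. These 3 of the 5 tested subunits had an unadjusted p under 0.05 (3.52% of all genes tested) and 0 passed in limma (adjusted p = 0.0779 for NCF4 and 0.804 for CYBB). The same 3 lay above every T-labelled line (6.12% of all genes tested) and CYBA lay below them (9.26%), while RAC2 overlapped. CYBA and RAC2 varied by 1.47 and 0.85.

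Among 20 transcription factors listed for calprotectin or S100A4, 17 were on the array, and 0 passed in limma. SPI1, the gene of PU.1, read 9.45 in 17-71 and 8.94 in GL-1, against 5.21 in CL-1, 5.51 in CLGL-90 and 5.43 in CLL-1390 (difference 3.81, SE 0.23, adjusted p = 0.0528). KLF5 ran the other way by -0.91 (SE 0.28), the only other factor with an unadjusted p under 0.05 (3.52% of all genes tested). FOS was highest in 17-71, at 12.36 against 7.67 in GL-1 and 7.003 to 9.42 across the T-labelled lines. JUN read 8.32 in 17-71 and 6.43 in GL-1, against 8.39 in CL-1, 5.52 in CLGL-90 and 5.93 in CLL-1390. CEBPE, a granulocyte factor, reached 7.53 in GL-1 against 6.20 to 6.71 elsewhere.

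Most S100A genes lie side by side in the dog genome (assembly UU_Cfam_GSD_1.0). Members whose probe sets read at background lie between members with high readings. In that order the cluster runs S100A1, S100A13, S100A14, S100A16, S100A2, S100A3, S100A4, S100A5, S100A6, S100A8, S100A12 and S100A9; S100A12 was not analysed here. S100A3 and S100A5, which flank S100A4 on either side, stayed at background in 17-71 and GL-1, where S100A4 and S100A6 were high. The 10 nearest genes with a probe set on each side of the cluster had a median range of 0.703, and 2 of these 20 had a range of at least log2 2 (RNF165, 2.01, and C7H18orf25, 2.06). CHTOP, the immediate neighbour on the S100A1 side, varied by 0.336, and SMAD2, next to S100A9, by 1.86. S100A10 and S100A11 are neighbours on another chromosome and had unlike patterns. Around them 5 of 20 neighbours had a range of at least log2 2, with SLC16A1 (5.33) and PPM1J (4.44) leading.

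**Figure D5:**
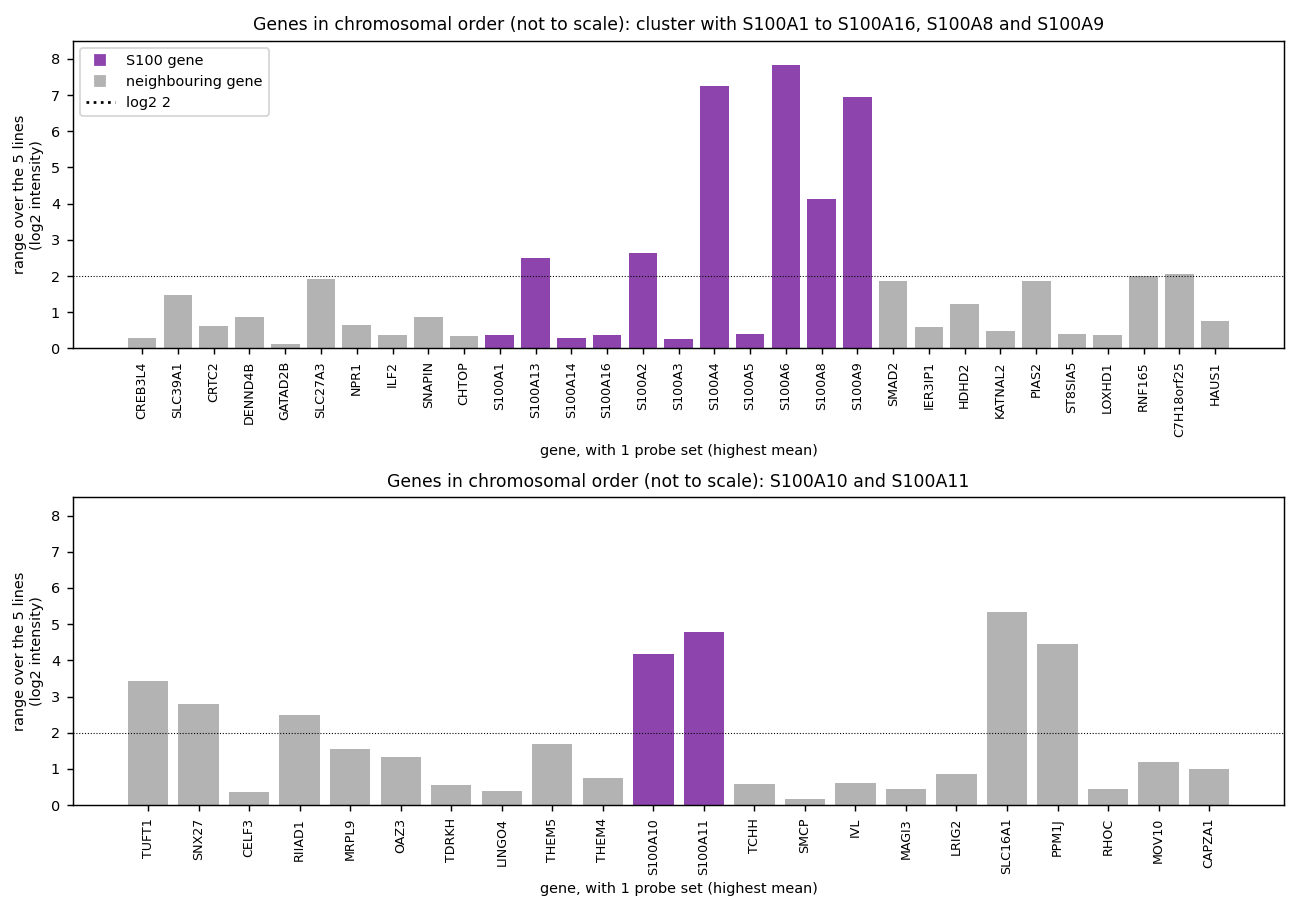
Range of log2 intensity over the 5 lines (bars, 1 probe set of highest mean per gene) for genes in chromosomal order, evenly spaced and not to scale, with S100 genes in purple, up to 10 neighbours on each side in grey and a dotted line at log2 2. S100A4, S100A6, S100A8 and S100A9 reach 4.11 to 7.82. S100A3 and S100A5, on either side of S100A4, stay at 0.267 and 0.412, with probe sets at background in every line.

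The genes nearest in pattern to S100A4, S100A6, S100A8 and S100A9 were then ranked, each gene by its probe set of highest mean. Likeness was the root mean square distance over the 5 lines between values centred on each gene's mean, among 2058 genes outside the family with a range of at least log2 2. Nearest to S100A8 were SPI1 (0.28), UPP1 (0.30), RNLS (0.31) and PLXND1 (0.48). Nearest to S100A9 were FCER1G, a signalling chain of Fc receptors (0.54), AIF1 (0.75), NCF4 (0.76) and MILR1 (0.80). AIF1 (0.57), HACD4 (0.76), NCF4 (0.82) and FCER1G (0.82) came nearest to S100A4, and HACD4 (0.87), FLT3 (1.09), FOXD2 (1.12) and P2RY14 (1.16) to S100A6. FLT3, a receptor of early progenitors, read 8.67 in 17-71 and 13.0002 in GL-1, against 7.44 to 7.98 across the T-labelled lines. The same measure was applied to the 4 other varying members after their values were seen. It gave FAM184B (0.15) and MMP13 (0.16) for S100A2, and SAT1 (0.17) and SPICE1 (0.18) for S100A13. For S100A10, read by the responsive probe set with a difference of -2.97, it gave ARL6 (0.46) and SCML2 (0.56). The 3 responsive probe sets with larger differences were not ranked. For S100A11 it gave RESF1 (0.30) and TSC22D3 (0.31). TSC22D3, a glucocorticoid-induced gene, read 11.92 in 17-71 and 10.45 in GL-1, against 6.81 in CL-1, 10.78 in CLGL-90 and 10.94 in CLL-1390.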

How the data were processed

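Total RNA of 5 canine lymphoid lines was labelled with biotin and hybridised to Affymetrix arrays, per the labels' protocols. The authors made the deposited log2 values, 1 per probe set, with GCRMA (background correction, normalization, summary), according to the submitters' processing notes. Its version is not given in the sources read. Array medians were 6.87 to 6.99. The number of arrays limits the precision.

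From these values 111 control probe sets were left out, and probe sets with 1 gene symbol in the platform annotation were named (29254; 439 had several and 13231 were not in it). Gene IDs of 16 of the 17 S100 genes were found in the reference gene table, S100A5 by symbol only; that table was used for names and gene order. Probe sets at log2 5 or more on at least 2 arrays (36661) were tested with limma 3.58.1 in R 4.3.3 (lmFit, eBayes), two-sided, B-labelled minus T-labelled, with Benjamini-Hochberg adjustment over all of them at 0.05. The fit was checked on simulated data. P-values measure the spread between lines only.

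All S100 probe sets were counted, and those with a range of at least log2 2 were named with values. From each list of related genes up to 4 were named by absolute difference; partners named beside a member, and others with a high or low line, were chosen after their values were seen. Members, lists and tests were chosen with earlier results of these data known. Alternatives were other filters, normalizations, a floor of log2 4, an intensity trend, CLGL-90 as its own group, 1 probe set per gene and leaving out each line. Protein and promoter sequences were not used here.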

Additional observations from a re-analysis of the deposited data

How the results depend on the processing

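The count of S100 probe sets past the threshold was 0 on the deposited values, where 0.0136% of all tested probe sets passed. It was 3 after a filter at log2 7 (S100A4, S100A8 and S100A9), where fewer probe sets were tested and the share of all that passed was not taken. It was 2 with an intensity trend and robust prior (S100A8 and S100A9), where that share was not taken either. The cause of these changes in the count was not tested. It was 0 under the other alternatives, 0 to 0 without each line in turn. The count whose groups do not overlap was 14 of 26, beside 14.9% of all tested probe sets. It was 12 of 19 after the filter at log2 7, where the share over all probe sets was not taken. With 1 probe set per gene it was 8 of 15, beside 15.4% of all genes tested. It was 14 to 17 without each line. Fewer lines make it easier for any probe set not to overlap, and the share over all probe sets was not taken there. The count with a range of at least log2 2 was 15, against 18 at log2 1, and 12 to 15 without each line. Of 183 differences of single probe sets under 13 alternatives, 177 kept direction and side of the threshold, 5 passed it and 1 turned: S100A13 was 0.038 without CL-1, in a range of -1.206 to 0.038 without each line. S100A8 and S100A9 were not tested without 17-71 or without GL-1, since they then reached log2 5 on 1 array. With a line left out, a group of 1 line is assumed to vary like the other group. No paired analysis was possible because no label pairs the lines. Where 1 group lies at the level of the non-dog controls, the size of a difference is limited. Where both groups lie there, its direction cannot be read either.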

Other observations

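The neighbours of S100A10 and S100A11 were often highest in 17-71. Of the 20 nearest genes with a probe set, 11 had their maximum in that line, against 16.3% of all genes, and S100A11 had its maximum there too. TUFT1 read 10.86 in 17-71 and 7.43 to 8.54 in the other lines, SNX27 9.47 against 6.68 to 7.58, and PPM1J 11.21 against 6.77 to 9.31. These genes were noticed after their values were seen, neighbours are not independent of each other, and no test was made. Around the S100A1 to S100A9 cluster 2 of 20 neighbours were highest in 17-71.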
